A study of Mus musculus with 24 samples.

Results

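The hypoxia-inducible set described here held 10 genes of the hypoxia-inducible factor (HIF) pathway: the transcription factor subunits Hif1a and Hif3a, the oxygen sensors Egln1 and Egln3, and the target genes Vegfa, Adm, Bnip3, Ankrd37, P4ha1 and Kdm3a. They were chosen by name from what is known of the pathway, and all 10 were found among the 43430 genes of the count table and had enough counts to be tested. The data are 24 libraries of polyadenylated RNA of whole cerebellum, each from 1 mouse about 7 weeks old, in 4 genotype groups of 6 (3 males and 3 females). The cKO+NDI1 group carried a conditional knockout together with NDI1, a yeast enzyme that oxidises NADH to NAD+ in mitochondria without pumping protons. The cKO group carried the knockout alone, the NDI1 control expressed NDI1 without the knockout, and the Cre control was the control for the recombinase. The study's title places the knockout in brain mitochondrial complex I, the first enzyme of the respiratory chain, which oxidises NADH. The labels name neither the gene nor the promoter that drives Cre. From the published study the gene is known to be Ndufs4, a complex I subunit, deleted with a Cre driven by the nestin promoter, which is active in precursors of neurons and glia, so cells outside that lineage keep the gene.

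HIF is a pair of proteins, an oxygen-sensitive alpha subunit and a stable ARNT subunit. In oxygen, EGLN enzymes hydroxylate prolines of the alpha subunit, which is then bound by VHL and degraded; when oxygen is short the subunit persists, enters the nucleus and raises genes for glycolysis, blood vessel growth, mitophagy and collagen processing. Control of the alpha subunit is largely at the protein level, which RNA counts do not measure, whereas the target genes are read at the RNA level. In brain, neurons, glia and vessel cells all carry the pathway, and loss of complex I lowers oxygen use by the affected cells.

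The promoters of 5 members on which the results below turn are printed from RefSeq (assembly GRCm38.p6, from 250 bases before to 50 after the start site, 5′ to 3′ on the gene's strand). Capitals mark the core of the HIF response element, searched as ACGTG or GCGTG on both strands, so that a match on the other strand reads CACGT or CACGC and neighbouring matches can share letters.
P4ha1 (chr10:59323046-59323345, + strand): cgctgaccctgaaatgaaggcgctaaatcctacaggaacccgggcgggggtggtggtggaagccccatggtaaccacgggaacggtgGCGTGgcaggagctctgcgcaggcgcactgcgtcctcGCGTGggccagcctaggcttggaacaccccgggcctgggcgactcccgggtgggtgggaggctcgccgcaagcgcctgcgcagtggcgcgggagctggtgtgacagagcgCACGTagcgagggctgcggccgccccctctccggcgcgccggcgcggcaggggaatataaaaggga
Ankrd37 (chr8:45999801-46000100, - strand): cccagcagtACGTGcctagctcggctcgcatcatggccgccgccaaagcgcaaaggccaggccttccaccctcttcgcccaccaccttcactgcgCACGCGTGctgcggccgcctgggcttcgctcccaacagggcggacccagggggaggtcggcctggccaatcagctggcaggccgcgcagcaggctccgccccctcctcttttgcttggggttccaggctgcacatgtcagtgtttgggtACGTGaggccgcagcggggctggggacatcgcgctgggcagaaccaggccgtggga
Bnip3 (chr7:138909457-138909756, - strand): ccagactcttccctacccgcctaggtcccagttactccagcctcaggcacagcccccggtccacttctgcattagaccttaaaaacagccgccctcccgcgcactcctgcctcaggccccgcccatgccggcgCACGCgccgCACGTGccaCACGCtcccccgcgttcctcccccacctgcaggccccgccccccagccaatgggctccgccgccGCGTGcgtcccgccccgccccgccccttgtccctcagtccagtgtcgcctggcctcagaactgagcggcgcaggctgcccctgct
Hif1a (chr12:73907617-73907916, + strand): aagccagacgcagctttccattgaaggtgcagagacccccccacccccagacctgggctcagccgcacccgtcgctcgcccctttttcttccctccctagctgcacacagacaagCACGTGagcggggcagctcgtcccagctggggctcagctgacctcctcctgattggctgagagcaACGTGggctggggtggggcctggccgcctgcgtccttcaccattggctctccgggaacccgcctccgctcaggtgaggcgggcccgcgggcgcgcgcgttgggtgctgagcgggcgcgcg
Hif3a (chr7:17062378-17062677, - strand): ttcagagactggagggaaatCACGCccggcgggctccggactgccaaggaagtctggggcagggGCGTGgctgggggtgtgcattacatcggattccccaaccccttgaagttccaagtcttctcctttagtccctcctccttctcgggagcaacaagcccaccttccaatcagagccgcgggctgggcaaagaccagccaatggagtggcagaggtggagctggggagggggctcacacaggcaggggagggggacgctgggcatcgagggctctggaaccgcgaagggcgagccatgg
The P4ha1 window held 3 matches, first bases at -163, -126 and -16 from the start site, the Ankrd37 window 4, the Bnip3 window 5, the Hif1a window 3 and the Hif3a window 2. All 10 members had at least 1 RefSeq window with a match, in 10 of their 13 windows. That held for 46.7% of all 27025 genes with such windows. For Vegfa the window at the start of the gene held 0 matches, and its matches lay in a window inside the gene. Of all 32851 RefSeq promoter windows, 43.8% held a match and 20.6% held 2 or more, so a short motif of 5 letters is common. A match describes these letters and does not show that a factor binds there.

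Library totals ran from 7584374 to 19785264 counts, with a median of 15281035 in cKO+NDI1, 11547903 in cKO, 15254777 in NDI1 control and 15874079 in Cre control. The sex of all 24 libraries fitted their labels. Ndufs4, counted over the whole gene and not only over a deleted part, had a log2 fold change of -0.47 ± 0.16 (SE) in cKO against Cre control and missed the threshold in edgeR's quasi-likelihood test (adjusted p = 0.0939). Of 15300 genes tested in that comparison 745 passed, 468 higher and 277 lower in cKO.

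P4ha1 was the 1 member of 10 that passed the test in cKO against Cre control, and it was lower in cKO. It stood at 0.798-fold in cKO cerebella relative to Cre control cerebella (log2 -0.33 ± 0.07, SE, n = 6 each; edgeR's quasi-likelihood test, adjusted p = 0.00944). The log2 fold changes of Vegfa, Bnip3, Egln1, Egln3 and Kdm3a lay between -0.15 for Egln3 and 0.09 for Kdm3a. Ankrd37 and Adm had lower means in cKO, and Hif1a and Hif3a higher ones, and none of these passed the test. The unadjusted 95% intervals of Ankrd37, -0.96 to -0.16, and Adm, -0.85 to -0.03, excluded 0, and those of Hif1a and Hif3a included it. Of all 15300 genes, 2837 had an unadjusted p under 0.05 in edgeR's test of this comparison. No member passed with a higher level in cKO in this fit; with 1 surrogate variable for unmodelled spread in the model, Hif1a did. Of all genes tested, 4.87% passed, 3.06% higher and 1.81% lower, and a single call among 10 members does not set them apart from that background. In 0 of 10 members did the 6 cKO libraries lie wholly apart from the 6 Cre control libraries, against 2.69% of all genes.

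**Figure D1:**
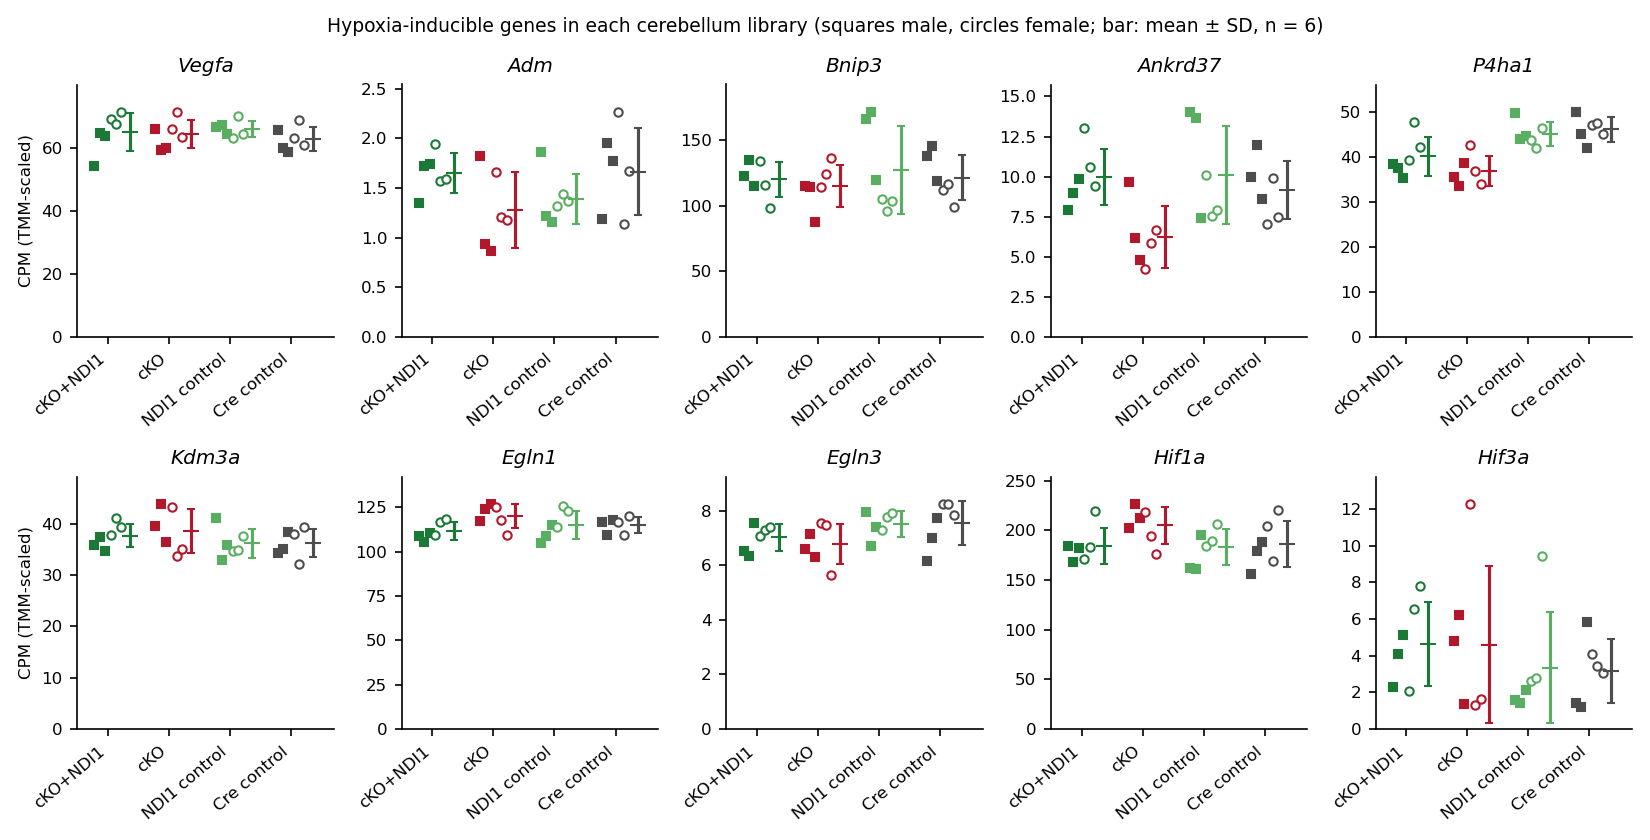
CPM (counts scaled by TMM library size) of each member in the 24 libraries, by genotype group; squares are males, circles females, and the bar beside each group is the mean ± SD (n = 6). P4ha1 was lowest in cKO and Hif3a ran from 1.22 to 12.3 CPM over all libraries.

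Levels can be compared between genes after division by exon length. On this scale of CPM per kilobase, Bnip3 was the highest member with a mean of 53.4 ± 9.09 (SD, n = 24 libraries), followed by Egln1 at 32.9 ± 1.84 and Hif1a at 32.2 ± 3.48. Vegfa stood at 15.1 ± 0.995, P4ha1 at 10.2 ± 1.21, Ankrd37 at 6.32 ± 1.85 and Kdm3a at 4.57 ± 0.383. Egln3 at 2.71 ± 0.257, Adm at 0.925 ± 0.219 and Hif3a at 0.587 ± 0.429 were the lowest. Egln1 and Hif1a, P4ha1 and Ankrd37, Ankrd37 and Kdm3a, and Adm and Hif3a overlapped over the libraries; the other neighbours in this order did not. Egln1 was the steadiest member, with a highest library only 1.21-fold above its lowest, and Hif3a the least steady, with 10.1-fold between cKO replicate F1 and Cre control replicate M2.

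Among the regulators, Hif1a encodes the oxygen-sensitive subunit itself. It had a lowest, median and highest level of 168, 183 and 219 CPM in cKO+NDI1, 176, 208 and 227 in cKO, 161, 187 and 207 in NDI1 control and 156, 184 and 220 in Cre control. The 4 groups overlapped, with 5 of 6 cKO libraries above the Cre control median. In cKO against Cre control its log2 fold change was 0.14 ± 0.08 (SE; edgeR's quasi-likelihood test, adjusted p = 0.39); with 1 surrogate variable for unmodelled spread, added after the data were seen, it was 0.14 and passed (adjusted p = 0.00833). In cKO+NDI1 against cKO it was -0.16 ± 0.08 (edgeR, adjusted p = 0.649).

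Egln1, which encodes PHD2, the main prolyl hydroxylase that marks HIF alpha subunits for destruction, lay between 105 and 127 CPM in all 24 libraries. Its groups overlapped, with 112 ± 4.94 CPM in cKO+NDI1, 120 ± 6.52 in cKO, 115 ± 7.94 in NDI1 control and 115 ± 4.45 in Cre control (SD, n = 6 each). The log2 fold change of cKO over Cre control was 0.06, with a 95% interval of -0.05 to 0.17. Egln3, a further hydroxylase that HIF itself induces in many cells, had 7.02 ± 0.493 CPM in cKO+NDI1, 6.78 ± 0.73 in cKO, 7.51 ± 0.475 in NDI1 control and 7.54 ± 0.81 in Cre control. All 6 cKO libraries lay below the Cre control median, and the 95% interval of the log2 fold change, -0.33 to 0.03, included 0.

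Hif3a (ENSMUSG00000004328, chr7:17031507-17062427 of mm10, - strand) encodes an alpha subunit with short forms that can hold back HIF activity. It had a lowest, median and highest level of 2.09, 4.6 and 7.8 CPM in cKO+NDI1, 1.31, 3.22 and 12.3 in cKO, 1.43, 2.39 and 9.42 in NDI1 control and 1.22, 3.23 and 5.84 in Cre control. Every group held low and high libraries, and the spread within a group was wider than any difference between groups. Set against Cre control, its log2 fold change in cKO was 0.51 with a 95% interval of -0.55 to 1.58, so these libraries bound the change only loosely.

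Of the targets that act on vessels, Vegfa, the growth factor for endothelial cells and the best known HIF target, overlapped between the groups. All 6 NDI1 control libraries lay above the Cre control median, and that comparison did not pass (log2 0.07; edgeR, adjusted p = 0.692). It had 65.03 ± 5.99 CPM in cKO+NDI1, 64.3 ± 4.5 in cKO, 65.9 ± 2.58 in NDI1 control and 62.7 ± 3.8 in Cre control (SD, n = 6 each). Its log2 fold change was 0.03 in cKO against Cre control, with a 95% interval of -0.09 to 0.16, and 0.01 in cKO+NDI1 against cKO, with an interval of -0.11 to 0.14.

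Adm encodes adrenomedullin, a peptide that widens vessels. It was thinly counted, with 11 to 41 reads per library, and had a lowest, median and highest level of 1.35, 1.66 and 1.94 CPM in cKO+NDI1, 0.868, 1.2 and 1.82 in cKO, 1.16, 1.34 and 1.87 in NDI1 control and 1.14, 1.72 and 2.27 in Cre control. These groups overlapped, with 5 of 6 cKO libraries below the Cre control median and 6 of 6 cKO+NDI1 libraries above the cKO median. The log2 fold change was -0.44 ± 0.20 in cKO against Cre control (edgeR, unadjusted p = 0.0378, adjusted p = 0.231) and 0.41 ± 0.20 in cKO+NDI1 against cKO (edgeR, adjusted p = 0.596). The interaction of knockout and NDI1, which is the knockout's effect with NDI1 minus its effect without, was 0.69 ± 0.28 and did not pass (edgeR, unadjusted p = 0.0195, adjusted p = 0.886).

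Bnip3 encodes a mitophagy receptor of the outer mitochondrial membrane. It had a lowest, median and highest level of 98.1, 119 and 135 CPM in cKO+NDI1, 87.6, 115 and 137 in cKO, 96.1, 112 and 172 in NDI1 control and 99.3, 118 and 145 in Cre control. The groups overlapped, and the NDI1 control was split between 2 males at 166 and 172 CPM and 4 libraries at 96.1 to 120 CPM. For cKO over Cre control the log2 fold change was -0.06, with a 95% interval of -0.32 to 0.20. It was -0.35 in males alone and 0.19 in females alone, and the difference, -0.54 ± 0.19, did not pass (edgeR, unadjusted p = 0.0104, adjusted p = 0.21).

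Ankrd37 (ENSMUSG00000050914, chr8:45996902-45999867 of mm10, - strand) encodes a small ankyrin repeat protein whose gene is a direct HIF target. In cKO+NDI1 replicates M1 to M3 and F1 to F3 it had 7.93, 9.0, 9.85, 13.03, 10.6 and 9.39 CPM, and in cKO 9.68, 6.14, 4.81, 4.21, 5.88 and 6.68 CPM. In NDI1 control it had 14.1, 13.6, 7.41, 10.1, 7.56 and 7.93 CPM, and in Cre control 9.95, 11.95, 8.6, 7.03, 9.91 and 7.47 CPM. Of the cKO libraries 5 lay below every library of the 3 other groups, and cKO replicate M1 lay among them. The log2 fold change was -0.56 ± 0.19 in cKO against Cre control (edgeR, unadjusted p = 0.00779, adjusted p = 0.0964) and 0.69 ± 0.19 in cKO+NDI1 against cKO (edgeR, unadjusted p = 0.00149, adjusted p = 0.19), so neither passed. Without cKO replicate M1 the first passed (edgeR, adjusted p = 0.0434), with DESeq2 the second (DESeq2, adjusted p = 0.0484), and with 1 surrogate variable both (edgeR, adjusted p = 0.0046 and 0.0136). The interaction was 0.55 ± 0.27 (edgeR, unadjusted p = 0.0471, adjusted p = 0.96). Exons of Ankrd37 share 57 bases with Ufsp2 and 349 bases with Lrp2bp on the opposite strand, and the counting is not stated to use strand, so reads there cannot be told apart. The same holds for 330 bases of Hif1a under the antisense gene Gm15283 and 504 bases of Bnip3 under Gm45507. Ufsp2 itself was lower in cKO than in Cre control, by a log2 of -0.23 (edgeR, adjusted p = 0.0362).

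P4ha1 (ENSMUSG00000019916, chr10:59323296-59373304 of mm10, + strand) encodes the catalytic alpha subunit of the collagen prolyl 4-hydroxylase, an enzyme of the endoplasmic reticulum that, like the EGLN sensors, uses oxygen and 2-oxoglutarate. In cKO+NDI1 replicates M1 to M3 and F1 to F3 it had 38.5, 37.5, 35.3, 39.4, 47.7 and 42.3 CPM, and in cKO 35.5, 33.5, 38.7, 42.6, 36.8 and 34.0 CPM. In NDI1 control it had 49.8, 44.0, 44.6, 43.9, 42.1 and 46.4 CPM, and in Cre control 50.1, 45.1, 42.0, 47.1, 47.6 and 45.2 CPM. All 6 cKO libraries lay below the Cre control median, and the groups overlapped because cKO replicate F1 lay above Cre control replicate M3. The log2 fold change was -0.33 ± 0.07 (95% interval -0.47 to -0.18; edgeR's quasi-likelihood test, adjusted p = 0.00944). It was -0.36 in males alone and -0.31 in females alone, with 3 mice a group, where it missed the threshold (edgeR, adjusted p = 0.105 and 0.128), and -0.32 with only these 2 groups in the fit (edgeR, adjusted p = 0.0505).

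With NDI1 present, P4ha1 lay between the knockout and the controls. It averaged 40.1 ± 4.37 CPM in cKO+NDI1, 36.9 ± 3.41 in cKO, 45.1 ± 2.68 in NDI1 control and 46.2 ± 2.77 in Cre control (SD, n = 6 each). In log2 fold change cKO+NDI1 stood 0.12 ± 0.07 over cKO (edgeR, adjusted p = 0.697), -0.17 ± 0.07 over NDI1 control (edgeR, adjusted p = 0.982) and -0.20 ± 0.07 over Cre control (edgeR, adjusted p = 0.169). None passed, and the interaction, 0.15 with a 95% interval of -0.06 to 0.36, leaves the size of any effect of NDI1 on P4ha1 unresolved.

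Kdm3a encodes a histone H3 lysine demethylase that also needs oxygen. It had 37.7 ± 2.3 CPM in cKO+NDI1, 38.6 ± 4.29 in cKO, 36.2 ± 2.88 in NDI1 control and 36.2 ± 2.77 in Cre control (SD, n = 6 each). The groups overlapped, and the log2 fold change of cKO over Cre control was 0.09 with a 95% interval of -0.06 to 0.25.

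**Figure D2:**
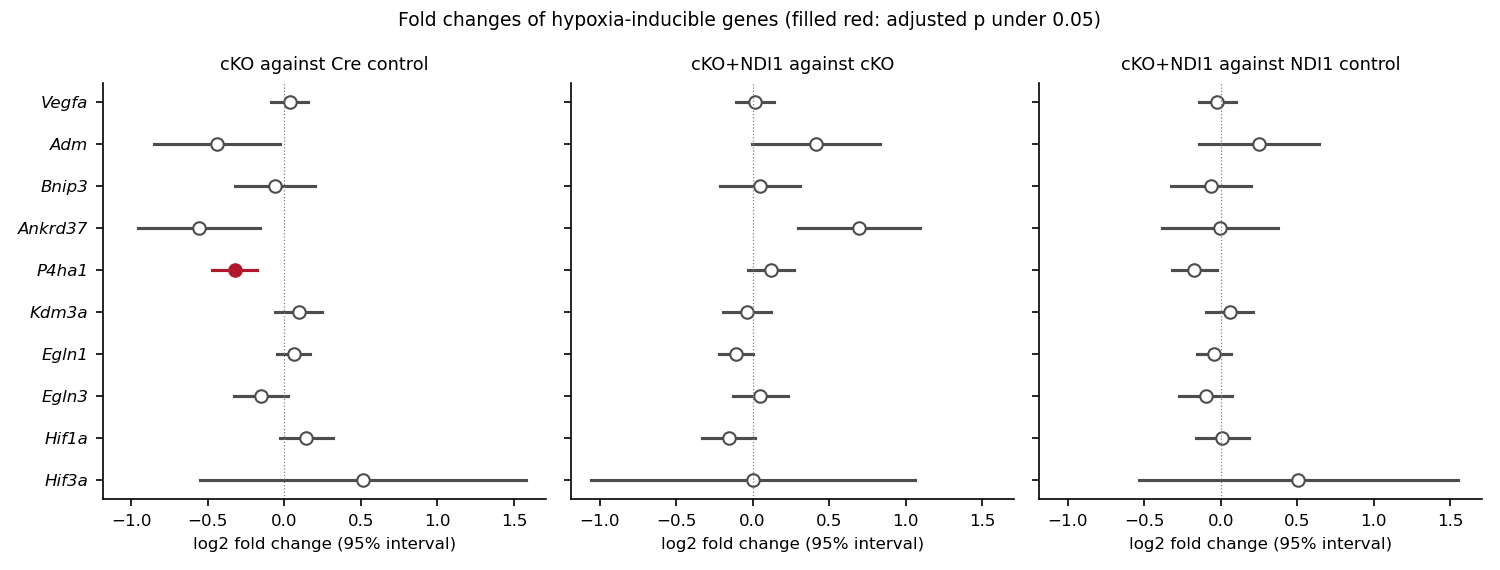
Log2 fold changes of the 10 members in 3 comparisons, with 95% intervals from the fit over all 24 libraries; filled red marks an adjusted p under 0.05. P4ha1 in cKO against Cre control, at -0.33, was the 1 such value, and the intervals of Hif3a spanned more than a log2 of 2.

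Beyond the knockout alone, no member passed. The count was 0 of 10 in cKO+NDI1 against cKO, where 0.209% of all genes passed, and 0 of 10 in cKO+NDI1 against NDI1 control, where 0.0% passed. It was also 0 of 10 in cKO+NDI1 against Cre control (1.25% of all genes) and in NDI1 control against Cre control (0.00654%). The interaction (0.0%), male against female (0.085%) and the knockout effect in males minus females (0.0%) gave 0 of 10 each. At an unadjusted p under 0.05 in edgeR's test stood Ankrd37 in cKO+NDI1 against cKO and P4ha1 in cKO+NDI1 against either control. So did Adm and Ankrd37 in the interaction, Vegfa between the sexes and Bnip3 in the difference between sexes. Of all 15300 genes, 1309 lay under 0.05 in cKO+NDI1 against cKO. With the NDI1 control as reference the count was 686, and with the Cre control 2064. It was 792 in the interaction, 2582 between the sexes and 3147 in the difference between sexes. These member values do not set the members apart from that background. DESeq2 called 1 member in cKO+NDI1 against cKO, Ankrd37, and limma-voom called 0 in these comparisons. The comparisons that share a group share its libraries and are not independent of each other.

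The rest of the pathway was read from lists of known genes. Of 15 genes of the HIF machinery 0 passed in cKO against Cre control, with a median log2 fold change of -0.01 beside -0.01 over all genes. These include Arnt, the stable partner, at 0.19 (edgeR, adjusted p = 0.199), Vhl, the ubiquitin ligase subunit, at -0.01, Epas1, the HIF-2 alpha gene, at -0.01, and Cited2, which competes with HIF for its coactivators, at 0.27 (edgeR, adjusted p = 0.0539). Of 13 tested ligands and receptors of the VEGF and adrenomedullin systems (of 14 listed) 0 passed, with a median of -0.13. Of 9 tested near relatives of the members (of 10) 0 passed: P4ha2, the other main alpha subunit, was at 0.06, and P4hb, the beta subunit that partners P4ha1, at -0.19 (edgeR, unadjusted p = 0.0339, adjusted p = 0.219).

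Of 40 tested further HIF targets (of 41), 2 passed in cKO against Cre control, 1 in each direction, with a median log2 fold change of 0.02. That share is close to the 4.87% of all genes that passed, so the count is not a result about these targets as a list. Edn1, which encodes the vessel-narrowing peptide endothelin, rose. It had a lowest, median and highest level of 5.25, 6.39 and 11.3 CPM in cKO+NDI1, 6.02, 7.07 and 15.3 in cKO, 2.8, 4.04 and 5.33 in NDI1 control and 2.45, 3.42 and 3.48 in Cre control. Both knockout groups lay wholly above the Cre control, which held for 2.69% of all genes in either direction in cKO and 1.58% in cKO+NDI1. The log2 fold change was 1.34 ± 0.21 in cKO (edgeR, adjusted p = 0.000706) and 1.14 ± 0.21 in cKO+NDI1 (edgeR, adjusted p = 0.00949) against it; the value in cKO+NDI1 was 0.84 in males alone and 1.44 in females alone and passed in neither (edgeR, adjusted p = 0.104 and 0.34). Against the NDI1 control, cKO+NDI1 stood 0.81 ± 0.20 higher and did not pass (edgeR, adjusted p = 0.288), and these groups overlapped. Markers of vessel cells were read in the same comparison of cKO with Cre control, where 3.06% of all genes passed higher. Of 9 pericyte and smooth muscle markers 4 rose, the contractile genes Acta2 at 0.84, Myh11 at 0.77 and Cnn1 at 1.07 and the pericyte gene Rgs5 at 0.25 (edgeR, adjusted p between 0.00154 and 0.0495), 8 had a positive log2 fold change, and the summed level of the 9 was 425 to 474 CPM in cKO against 339 to 426 in Cre control. Leaving out a library gave 1 to 4 of these calls, 1 without Cre control replicate F2, F3 or M3. Acta2 passed in all 24 of these fits, Rgs5 in 20, Cnn1 in 9 and Myh11 in 5. Of 12 endothelial markers 1 rose, Pecam1 at 0.76 (edgeR, adjusted p = 0.000151), 10 had a positive log2 fold change, and their summed level was 390 to 498 CPM in cKO against 375 to 433 in Cre control. The sums of the 9 and the 12 were 389 to 438 and 410 to 461 CPM in NDI1 control. In cKO+NDI1 they were 418 to 496 and 418 to 486 CPM. NDI1 control against Cre control had 8 of 9 and 9 of 12 positive, and cKO+NDI1 against NDI1 control 7 of 9 and 6 of 12. In these 2 comparisons 0 passed. In bulk tissue more cells of a type and more RNA per cell cannot be told apart, and the part of vessel cells in the rise of Edn1 was not tested.

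Of 19 glycolytic HIF targets, 3 fell in cKO against Cre control and 0 rose, where 1.81% of all genes passed lower and 3.06% higher, and 16 had a negative log2 fold change, with a median of -0.11 beside -0.01 over all genes. The 3 that fell are Pdk1, Hk2 and Eno1. Pdk1 encodes a kinase that inhibits pyruvate dehydrogenase and is also 1 of the further targets above. Hk2 encodes an inducible hexokinase and Eno1 an enolase. Pdk1 had a lowest, median and highest level of 30.2, 32.02 and 36.9 CPM in cKO+NDI1, 19.9, 25.7 and 30.0 in cKO, 29.6, 32.96 and 34.6 in NDI1 control and 30.6, 33.1 and 38.6 in Cre control. The cKO libraries all lay below the Cre control libraries, and the log2 fold change was -0.43 ± 0.09 (edgeR, adjusted p = 0.00385). Eno1, at 311 ± 27.0 CPM in cKO and 395 ± 29.9 in Cre control, changed by -0.34 ± 0.06 (edgeR, adjusted p = 0.00225). Hk2, at 11.9 ± 3.41 CPM in cKO and 19.1 ± 4.0 in Cre control, changed by -0.67 ± 0.17 (edgeR, adjusted p = 0.0202), and missed the threshold without Cre control replicate M3 (-0.58; edgeR, adjusted p = 0.0617). In males alone Edn1 was at 0.96, Pdk1 at -0.34, Eno1 at -0.28 and Hk2 at -0.45, and none passed (edgeR, adjusted p between 0.0539 and 0.288). With only the 2 groups in the fit Pdk1 and Hk2 missed the threshold (edgeR, adjusted p = 0.0545 and 0.069).

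With NDI1 none of these glycolytic genes passed against the Cre control, and 17 of 19 had a positive log2 fold change in cKO+NDI1 against cKO, of which 0 passed. Pdk1 was nearest, at 0.39 ± 0.09 (edgeR, unadjusted p = 0.00012, adjusted p = 0.0541). The count of 0 depended on the processing: it was 1 with DESeq2 size factors in edgeR, 2 with DESeq2 and 7 with 1 surrogate variable, all higher in cKO+NDI1. Leaving out a library gave 0 to 2, with Pdk1 passing without Cre control replicate F2, and Pdk1 and Eno1 without cKO replicate M3. The 17 of 19 and the fall in cKO share the cKO libraries. Set against the NDI1 control, 16 of 19 had a negative log2 fold change in cKO+NDI1, with a median of -0.075, and 0 passed. NDI1 control against Cre control had 15 of 19 positive, and 0 passed. The interaction had 11 of 19 positive, with a median of 0.02, and 0 passed. Ldha, Pgk1 and Aldoa, which are textbook HIF targets, were at -0.11, -0.20 and -0.18 in cKO against Cre control and did not pass.

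**Figure D3:**
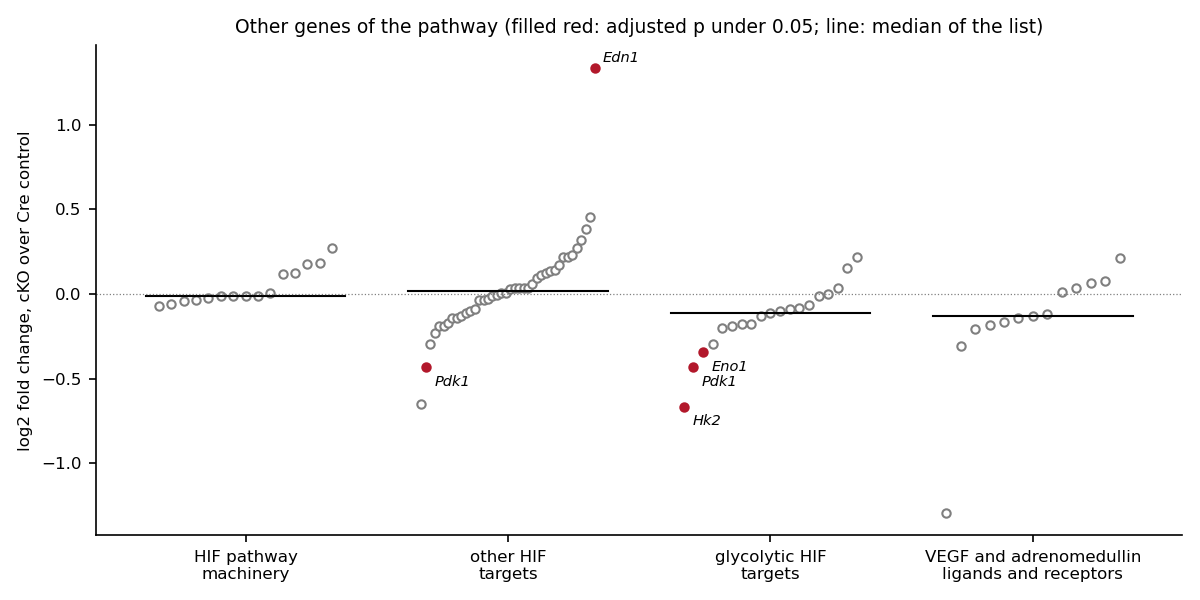
Log2 fold changes, cKO over Cre control, of the other genes of the pathway in 4 lists; each point is a gene, filled red where the adjusted p was under 0.05, and the line is the median of the list. Edn1 stood at 1.34, and Pdk1 (shown in both lists that hold it), Hk2 and Eno1 lay below 0.

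The genes whose levels most resembled P4ha1 over the 24 libraries were Pdia4 (Pearson r = 0.827), Slc14a1 (r = 0.816) and Slc1a6 (r = 0.802). Pdia4 encodes a protein disulfide isomerase, Slc14a1 a urea transporter and Slc1a6 a glutamate transporter of Purkinje cells. After removal of group and sex the same pairs had r = 0.647, 0.544 and 0.406, each lower than over the levels themselves. The 3 genes were picked by their r over the levels, which hold the group differences, so the lower r follows in part from that choice. Of 10 astrocyte and Bergmann glia markers 9 had a negative log2 fold change in cKO against Cre control and 2 passed (Slc1a3 at -0.28 and Fabp7 at -0.97), and their summed level was 6247 to 7264 CPM in cKO against 7176 to 7723 in Cre control. Of 5 Purkinje cell markers 4 were negative and Slc1a6 passed at -0.34, with a summed level of 7725 to 8436 against 8719 to 9551 CPM. Of all genes in this comparison 1.81% passed lower and 3.06% higher, with a median log2 fold change of -0.01. All these glia and Purkinje cell markers were detected, and their part in the fall of P4ha1 was not tested.

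Within the groups the members did not vary as 1 block. After group and sex were removed, 11 of 45 pairs of members were correlated over the 24 libraries at an adjusted p under 0.05 (two-sided permutation test of Pearson r, Benjamini-Hochberg over the 45 pairs), 7 positively and 4 negatively, and 10 of these also by Spearman's rho. The 11 pairs, 24.4% of the 45, are those with r of at least 0.506 in size, which 29.5% of all pairs of tested genes reached, so the count is not a result about the members. Hif1a and Egln1 went together (r = 0.719, rho = 0.685, adjusted p = 0.0009 by permutation; r = 0.625 without the 2 farthest libraries). Bnip3 went against both, with r = -0.789 and rho = -0.764 for Egln1 (r = -0.77 without the 2 farthest) and r = -0.738 and rho = -0.742 for Hif1a (r = -0.759). The adjusted p was 0.000675 for each of these by permutation. The signs held in males and in females alone, with r = -0.83 and -0.778 for Bnip3 and Egln1. Bnip3 went with Ankrd37 (r = 0.611, rho = 0.565, adjusted p = 0.0139 by permutation; r = 0.522 without the 2 farthest), and Kdm3a with Hif3a (r = 0.623, rho = 0.61, adjusted p = 0.0139 by permutation; r = 0.684). P4ha1 was correlated with no other member at that threshold.

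Much of the spread between libraries lay on an axis that many genes share. A principal component of all 15300 genes, with group and sex removed, took 35.9% of the spread, against 8.71% for the next, and 41.4% of genes had an r above 0.7 in size with it. The members' r with it ran from -0.882 for Bnip3 and -0.672 for Ankrd37, through -0.168 for P4ha1, to 0.788 for Egln1 and 0.927 for Hif1a. Across genes the r with this axis rose with exon length (Spearman 0.604 over 15213 genes, which are not independent replicates), with a median of -0.612 in the shortest of 5 equal length classes and 0.786 in the longest. The axis had r = 0.071 with the log2 library total. The source of the axis, and its part in these correlations, was not tested.

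**Figure D4:**
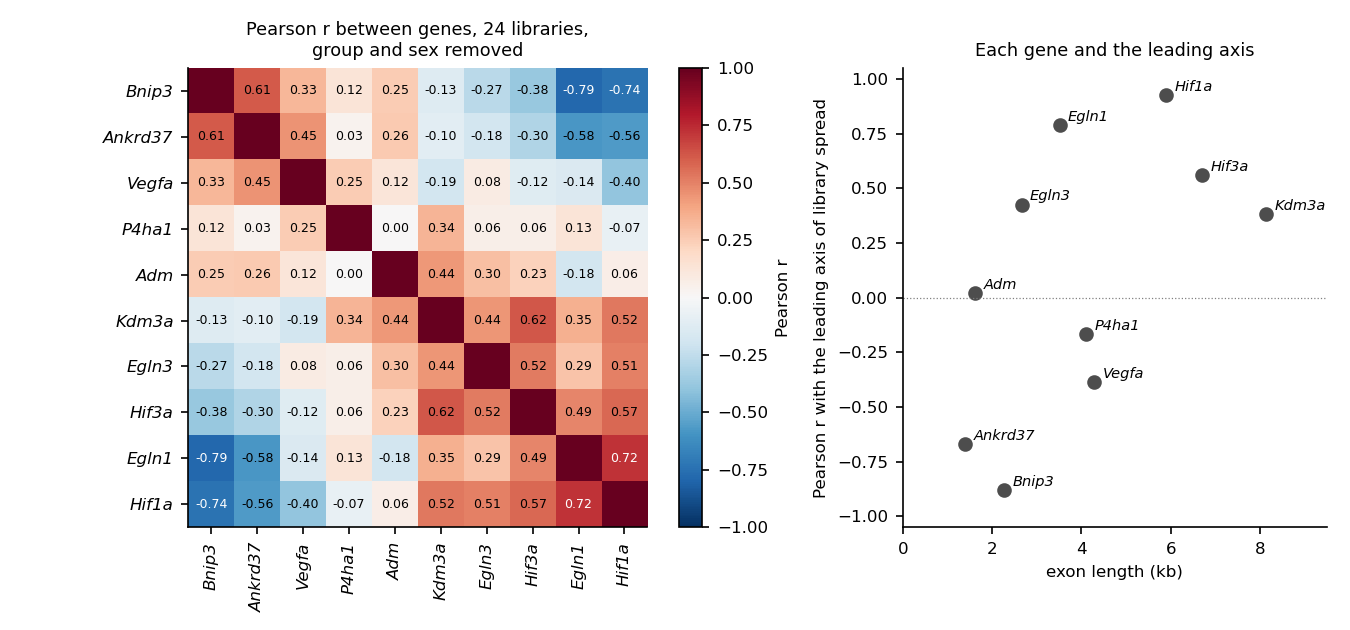
Left, Pearson r between members over 24 libraries with group and sex removed, ordered by their r with the leading axis of spread between libraries. Right, that r for each member against its exon length in kilobases: Bnip3 at -0.882 and Hif1a at 0.927 are the ends.

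Hif3a, the member with the widest spread, varied with genes that glucocorticoid hormone induces. After removal of group and sex, all 10 listed glucocorticoid-responsive genes had a positive r with Hif3a over the 24 libraries, with a median of 0.639, and 7 of 10 passed a permutation test adjusted over 20 genes. Over the other 15299 tested genes the median r with Hif3a was -0.03, 47.9% were positive, and 10.6% reached 0.546, the smallest r among those 7. P4ha1 and Adm also had a positive r with all 10, at lower medians of 0.289 and 0.259. Ankrd37 went the other way, with 3 of 10 positive, a median of -0.181 and a lowest of -0.628. Zbtb16, a zinc finger repressor, had r = 0.905 and rho = 0.896, and r = 0.894 without the 2 farthest libraries. Fkbp5, a cochaperone of the glucocorticoid receptor, had r = 0.86 and rho = 0.831, and r = 0.797 without them. Both had an adjusted p of 6.67e-05 for r by permutation, from an unadjusted 1e-05, the smallest that 100000 permutations can give. Tsc22d3, the weakest of the 7, missed the threshold by rho (rho = 0.466, adjusted p = 0.0551 by permutation) and had r = 0.352 without them. For Zbtb16 r was 0.871 in males and 0.951 in females. Over the 10 genes r ran from -0.085 for Per1 to 0.871 in males, where Tsc22d3 had 0.21 and Pdk4 0.209. In females it ran from 0.308 for Sult1a1 to 0.951. Of 10 immediate early genes, which mark recent neuronal activity, 1 passed, Egr1 at r = 0.588 (rho = 0.509, adjusted p = 0.00574 by permutation; r = 0.403 without the 2 farthest). P4ha1 had a positive r with all 10 of these, with a median of 0.42 and a highest of 0.69, beside a median of 0.00 over all genes. Adm had 7 of 10 positive, with a median of 0.02, and Ankrd37 had 2 of 10, with a median of -0.231. In cKO against Cre control the glucocorticoid-responsive genes had a median log2 fold change of 0.48, with 10 of 10 positive and 2 that rose. The immediate early genes had 0.61, with 9 of 10 positive, 2 that rose and 1 that fell. Of all genes 3.06% passed higher and 1.81% lower, and the median was -0.01. Leaving out a library gave 1 to 2 and 1 to 3 calls in the 2 lists. Both list medians include cKO replicate F1, whose summed levels, given below, stood far above those of the other cKO libraries. The 2 lists share no gene, and their part in the levels of Hif3a and P4ha1 was not tested.

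The library at the top of these distributions was cKO replicate F1. It had the highest Hif3a of all 24 at 12.3 CPM, the highest P4ha1 of its group at 42.6 CPM and the highest Edn1 at 15.3 CPM. Its summed glucocorticoid-responsive genes stood at 1586 CPM and its summed immediate early genes at 590 CPM, both the highest of the series. The other cKO libraries had 729 to 1025 CPM and 140 to 234 CPM, and the Cre control libraries 717 to 986 CPM and 136 to 224 CPM. How far the rise of the 2 lists in cKO rests on cKO replicate F1 was not tested beyond the calls above. Without it the log2 fold change of P4ha1 in cKO against Cre control was -0.37 (edgeR, adjusted p = 0.00553).

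**Figure D5:**
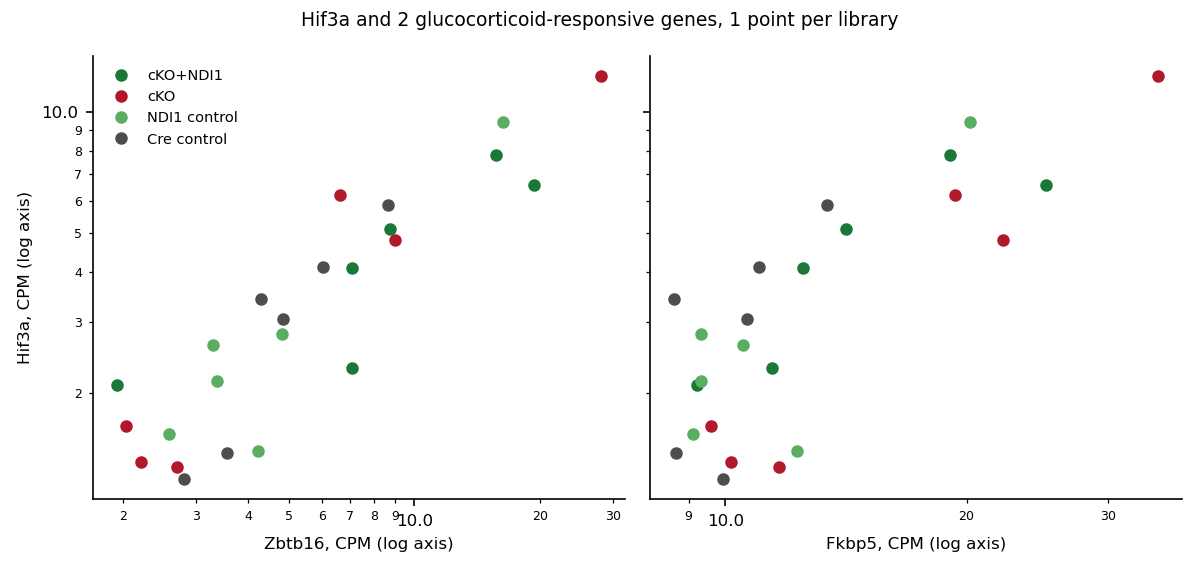
Hif3a against Zbtb16 (left) and Fkbp5 (right) in CPM on log axes, 1 point per library, coloured by genotype group. Libraries high in Zbtb16 or Fkbp5 were high in Hif3a, and the highest is cKO replicate F1 at 12.3 CPM of Hif3a.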

How the data were processed

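Polyadenylated RNA of 24 cerebella was read as 1 library per mouse. The authors deposited raw read counts per gene, made with bcl2fastq, Trimmomatic, STAR and HTSeq on mouse build mm10, per the submitters' processing notes; versions and strand setting are not given in the sources used here. The members, lists and tests were chosen with earlier results of these data known. From the counts, TMM factors and edgeR's quasi-likelihood F test (edgeR 4.0.16, R 4.3.3) were computed in 1 model of all 24 libraries with group and sex, over 15300 genes left by filterByExpr, with Benjamini-Hochberg adjustment over all of them and a threshold of 0.05. Groups and sexes come from the labels, and each library is 1 mouse. CPM are counts scaled by TMM library sizes; logs used a prior count of 2. Levels per kilobase used GENCODE exon lengths within the deposited gene bounds, since the deposited length exceeds the gene's span for 1982 genes. Depth was 7584374 to 19785264 counts; Adm and Hif3a rest on the fewest reads. Correlations used 100000 permutations of libraries.

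Named genes followed a rule: all members; up to 4 passing genes with the smallest p per list; the 3 genes most like each passing member; and Ndufs4. Zbtb16, Fkbp5, Egr1, Ufsp2 and list genes given as not passing were picked after values were seen. The scripts were tested on simulated counts. Alternatives were DESeq2 1.42.0, limma-voom, other scalings, no filter, thinning, a replicate block, single sexes, leaving out each library and 1 surrogate variable (sva 3.50.0).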

Additional observations from a re-analysis of the deposited data

Results flagged for a closer look

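Hif1a in cKO+NDI1 replicate F3 stood far from the rest of its group, at 219 CPM against 168 to 184 CPM in the other 5 libraries; the gap was 0.696 of the group's range. Hif3a in NDI1 control replicate F3 did likewise, at 9.42 CPM against 1.43 to 2.8 CPM, with a gap of 0.828 of the range. The limit for 6 samples is 0.625, and 40 groups were checked, of which chance alone flags about 1 in 20. The library cKO+NDI1 F3 also had the lowest total, 7584374 counts.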

How the results depend on the processing

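In cKO against Cre control 1 member passed; the count was 0 with only the 2 groups compared, with males only and with females only, and 3 with 1 surrogate variable (Ankrd37, P4ha1 and Hif1a). Leaving out each library in turn gave 1 to 2 members, 2 without cKO replicate M1. In cKO+NDI1 against cKO the count of 0 became 1 with DESeq2 and 1 with 1 surrogate variable (Ankrd37), and in cKO+NDI1 against Cre control 1 with 1 surrogate variable (P4ha1). The surrogate variable and the alternatives for correlations were chosen after the data were seen. Of 2700 alternative values for single members 2691 kept their side of the threshold, 6 crossed it to pass, 3 fell short (P4ha1), and 0 that passed in either fit turned sign; 215 that passed in neither differed in sign. P4ha1 passed in all 24 fits that leave out a library.

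The labels do not say that replicate numbers pair mice, and same-numbered libraries correlated from -0.402 to 0.506 with 19 of 36 pairs above 0.1; 8 of 24 libraries were closest to one of their own number. With the replicate block P4ha1 was at -0.32 (edgeR, adjusted p = 0.0154), and the count of members that passed stayed at 1. Of 297 alternative values for the 11 correlations 47 missed the threshold and 0 turned sign; they touched Egln3 with Hif1a and Hif3a, Kdm3a and Hif3a with Hif1a, and Ankrd37 with Egln1 and Hif1a. Egln3 with Hif1a fell to r = 0.196 without the 2 farthest libraries. In cKO against Cre control the 3 glycolytic and 2 further HIF targets that passed became 10 and 9 with 1 surrogate variable, 1 and 1 with only the 2 groups compared, 0 and 0 in males, and 4 and 2 in females. The HIF machinery went from 0 to 3 with 1 surrogate variable. It went to 1 with scaling by library size alone, with DESeq2 and with thinning, and leaving out a library gave 0 to 1. Depth limits Adm most, at 11 to 41 reads per library.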
